A study of Mus musculus with 10 samples.

Results

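Glutathione transferases and aldehyde dehydrogenases are 2 enzyme families that clear reactive molecules from cells, and their transcripts were followed here in mouse oocytes. Members were taken by gene symbol: a transferase of the alpha, mu, pi, theta, omega, kappa, zeta or microsomal class (Gsta, Gstm, Gstp, Gstt, Gsto, Gstk, Gstz and Mgst with a digit) or a gene named Aldh with a digit, without pseudogenes. Of 18493 genes in the table, 45 met this rule, 24 transferases and 21 dehydrogenases. The families were chosen by measured values: genes of xenobiotic metabolism tended to have higher counts with spermidine than in aged oocytes. The values of that comparison are therefore a description: how many members or list genes passed a threshold there is given as a count only, and nothing is supported by it.

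The libraries were made by SMART-seq2, a method for few cells that primes reverse transcription at the poly(A) tail and amplifies whole cDNAs before sequencing. There were 3 groups of oocytes from the ovary: young (n = 3 libraries, labelled as control), aged (n = 3, labelled as treatment) and spermidine (n = 4, labelled as rescue, taken as aged oocytes that received the polyamine spermidine). The labels give no strain, age, dose or number of oocytes or animals behind a library, so the p-values only reflect how far these libraries spread, which may be technical. The series was made to learn how spermidine acts on the quality of aged oocytes.

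Glutathione transferases join the tripeptide glutathione to electrophiles such as lipid peroxidation products and foreign compounds, and several also act as peroxidases, isomerases or reductases. Aldehyde dehydrogenases oxidise aldehydes to acids with NAD or NADP as acceptor. They act on aldehydes from lipids, alcohol, retinol, amino acids and polyamines, and in the ovary they include the enzymes that make retinoic acid.

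Library totals lay between 24222185 and 28730790 counts. The 12 oocyte markers that were read, among them Gdf9 and Zp3, were all detected and summed to between 23906 and 39741 CPM in a library (CPM, counts scaled to a common library total). Blood and immune markers, mostly haemoglobin, were high in 3 libraries, young replicates 1 and 3 together with aged replicate 1 (sums of 12.1 to 27.3 CPM), while the remaining 7 stayed at or below 1.42 CPM. Markers of theca and stroma summed to 2.34 to 6.31 CPM and those of epithelium to 2.74 to 6.33 CPM. Libraries also differed in how a transcript's level moved with its GC content and with its length. Across genes, a library's deviation from the mean correlated with GC content at -0.258 (young replicate 3, the lowest) up to 0.379 (aged replicate 3, the highest). With log2 transcript length the correlation ran from -0.204 (young replicate 1) to 0.414 (aged replicate 1). Genes are not independent replicates, so these trends are a description of each library.

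Of the 45 members, 32 had counts high enough to be tested, 19 transferases and 13 dehydrogenases. The other 13 were Gsta3, Gstm4, Gstp3, Gstt1, Mgst2, Aldh16a1, Aldh1a3, Aldh1b1, Aldh1l2, Aldh3a1, Aldh3b2, Aldh3b3 and Aldh8a1. They had between 1 and 50 counts over the 10 libraries together and at most 0.539 CPM in any of them, so changes in them were not detectable at this depth. Per kilobase of transcript, the transferases led: Gsta4 averaged 279.9 CPM per kilobase over the groups, Gstm5 158 and Mgst3 115. The next was Gstp1 at 53.2 CPM per kilobase, and the remaining 15 tested transferases lay between 0.184 and 15.6. The ranges of Gstm5 and Mgst3 over libraries overlapped, whereas Gsta4 lay above Gstm5 in its range (228.6 to 373 against 120.0 to 207 CPM per kilobase) and Gstp1 below Mgst3.

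Among the dehydrogenases Aldh9a1 led with 41.5 CPM per kilobase, followed by Aldh1a2 with 29.1 and Aldh7a1 with 10.3. Aldh9a1 makes gamma-trimethylaminobutyrate on the way to carnitine and also oxidises the aldehyde formed from putrescine. Aldh1a2 makes retinoic acid from retinaldehyde, and Aldh7a1 acts in lysine breakdown. The ranges of Aldh9a1 and Aldh1a2 over libraries overlapped, and that of Aldh7a1 lay below both. The well-known ethanol pathway enzyme Aldh2 was at 1.13 CPM per kilobase. Aldh1a1, a marker of many somatic and stem cells, stood last of the 13 at 0.134 CPM per kilobase.

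**Figure D1:**
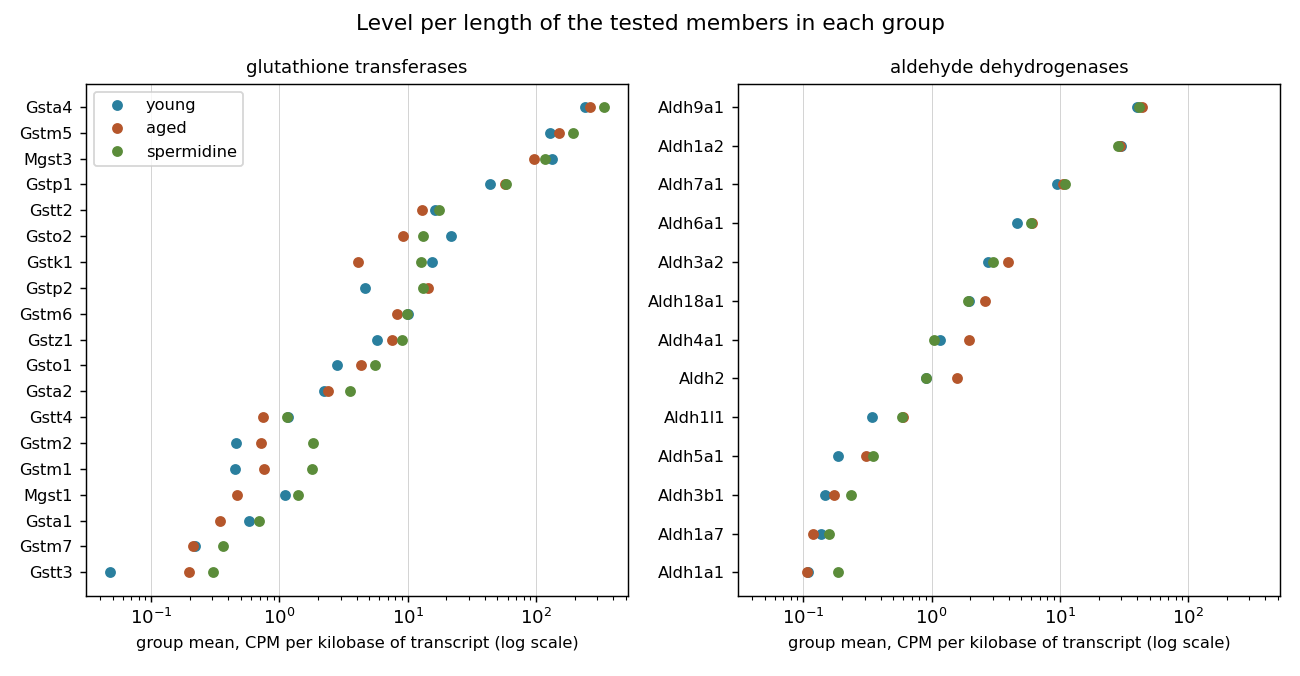
Group means of the 32 tested members in CPM per kilobase of transcript on a log axis, transferases on the left and dehydrogenases on the right, 1 point per group. Gsta4, Gstm5 and Mgst3 stand at the top in all 3 groups, and Gstk1, Gsto2 and Gstp2 have the young and aged points farthest apart among the transferases above 10 CPM per kilobase.

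The question of the first comparison is how the members differed between aged and young oocytes. With 12315 genes tested by edgeR's quasi-likelihood test, 17.8% of all genes passed at a Benjamini-Hochberg adjusted p of 0.05 (9.71% higher and 8.06% lower in aged oocytes). Of the 32 members 5 passed, which is 15.6% and near that background. Gstp2 and Aldh1l1 were higher in aged oocytes, and Gstk1, Gsto2 and Mgst3 were lower. With libraries scaled to total counts 3 members were higher and 2 lower, since Mgst3 no longer passed and Aldh2 did. The median over all genes was 0.24 under that scaling and 0.10 in the main fit. Of the members 20 had a log2 fold change above 0 (56% of all genes did), and 10 had an unadjusted p under 0.05 (34.7% of all genes). The transferases had 1 higher and 3 lower of 19, with a median log2 fold change of 0.10, the same as over all genes. The dehydrogenases had 1 higher and 0 lower of 13, with a median of 0.39.

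Gstk1 (Gene ID 76263) encodes the kappa-class transferase of mitochondria and peroxisomes. It stood at 15.7, 14.0 and 13.7 CPM in the young libraries and at 4.17, 2.96 and 4.37 CPM in the aged ones. The groups lay far apart, and the fitted fall was 3.77-fold. On the log2 scale it fell by 1.91 (SE 0.22, edgeR adjusted p = 0.00034), and it passed in all 19 alternatives. The fall rested on 78 to 125 counts in an aged library against 307 to 390 in a young one. In the authors' deposited table the log2 ratio of aged to young was -1.95. As the member with the largest fall its start region is shown, the 250 bases before the transcript start from RefSeq (GRCm38.p6, chr6:42245685-42245934, plus strand), 5′ to 3′; it holds neither motif described further on.
Gstk1: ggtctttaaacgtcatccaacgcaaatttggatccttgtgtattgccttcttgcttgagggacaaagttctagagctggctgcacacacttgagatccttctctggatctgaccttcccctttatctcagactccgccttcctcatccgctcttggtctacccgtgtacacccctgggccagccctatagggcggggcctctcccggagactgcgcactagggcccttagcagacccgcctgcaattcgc

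The omega class holds the neighbouring genes Gsto1 and Gsto2, whose proteins reduce dehydroascorbate and mixed disulfides rather than mainly conjugate glutathione. Gsto2 (Gene ID 68214) stood at 28.8, 32.8 and 26.8 CPM in young oocytes and at 9.91, 12.7 and 14.5 CPM in aged ones. The groups did not overlap, and Gsto2 fell by 1.26 on the log2 scale (SE 0.17, edgeR adjusted p = 0.0009), which was 2.39-fold, again in all 19 alternatives. Gsto1 (Gene ID 14873) stood at 2.81, 4.09 and 2.98 CPM in young oocytes and at 4.24, 5.42 and 5.54 CPM in aged ones. Here every aged library was above every young one, but the difference did not pass (log2 fold change 0.61, SE 0.22, edgeR adjusted p = 0.0667). It passed in 2 of 18 alternatives, when young replicate 2 was left out and when aged replicate 1 was left out along with spermidine replicate 1 (adjusted p = 0.0427 to 0.255). Both genes overlap Cfap43 on the opposite strand, which averaged 0.0652 CPM. The start region of Gsto2, the other transferase with a large fall, is the first of the windows RefSeq lists for it (GRCm38.p6, chr19:47865295-47865544, plus strand, 250 bases before the start, without either motif).
Gsto2: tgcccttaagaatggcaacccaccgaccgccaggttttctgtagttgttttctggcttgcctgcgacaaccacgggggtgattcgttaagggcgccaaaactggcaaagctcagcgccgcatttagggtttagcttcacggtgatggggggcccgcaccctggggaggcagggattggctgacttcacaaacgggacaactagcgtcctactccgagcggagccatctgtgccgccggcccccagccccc

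Mgst3 (Gene ID 66447) encodes a microsomal transferase and peroxidase of the membrane-bound family that also makes leukotrienes. Its levels were 149, 140.3 and 148 CPM in young and 111, 106 and 102 CPM in aged oocytes, with no overlap. It fell by 0.46 on the log2 scale (SE 0.13, edgeR adjusted p = 0.0355). The call was lost without young replicate 1, 2 or 3, without aged replicate 2 or 3, with total count scaling, with no filter and with the library's GC trend as a term (adjusted p = 0.0568 to 0.189). The direction was the same in all of these, with log2 values from -0.54 to -0.31 over the 19 alternatives. Mgst1, the other tested microsomal member, was below 2 CPM in the young and aged libraries and is described with the low transferases.

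The pi class holds the neighbouring genes Gstp1 and Gstp2. Enzymes of this class conjugate glutathione and bind stress kinases, but the activity of the Gstp2 product was not measured here. Gstp2 (Gene ID 14869) rose from 5.07, 3.34 and 2.71 CPM in young to 10.4, 13.3 and 10.7 CPM in aged oocytes, without overlap. The fitted rise was 1.63 on the log2 scale (SE 0.24, edgeR adjusted p = 0.00126), or 3.09-fold, and it passed in all 19 alternatives. Gstp1 (Gene ID 14870) stood at 43.4, 31.6 and 33.0 CPM in young and 45.5, 55.1 and 39.6 CPM in aged oocytes, with overlap, and did not pass (0.38, SE 0.21, edgeR adjusted p = 0.216). The copies are nearly identical, so their split is uncertain. Their open reading frames of 633 bases differ at 12 positions (98.1% identity), and 44.3% of the 50-base words of the Gstp2 transcripts also occur in Gstp1. The stretch of 90 bases with the most differences is shown because reads over its capitals can tell the copies apart (bases 1 to 90 of the reading frame from the GENCODE M21 transcripts, 5′ to 3′, capitals at the 6 bases that differ).
Gstp1: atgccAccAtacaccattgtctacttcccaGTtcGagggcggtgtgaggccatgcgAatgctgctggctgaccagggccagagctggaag
Gstp2: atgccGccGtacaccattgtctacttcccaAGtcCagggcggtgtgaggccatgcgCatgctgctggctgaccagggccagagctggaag

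The abundant alpha and mu members did not pass between aged and young oocytes. Gsta4 (Gene ID 14860), whose enzyme favours the lipid aldehyde 4-hydroxynonenal, stood at 240.5, 223 and 238 CPM in young and 253, 281 and 239 CPM in aged oocytes (log2 fold change 0.14, SE 0.13). Gstm5 (Gene ID 14866), a mu-class gene best known from testis and brain, stood at 127, 121 and 113 CPM in young and 164, 132 and 134 CPM in aged oocytes (0.25, SE 0.13). Aged Gstm5 libraries were all above young ones, while those of Gsta4 overlapped. Gstm6 was at 11.8, 12.2 and 11.7 CPM in young and at 10.04, 9.10 and 9.87 CPM in aged oocytes (-0.30, SE 0.16), with no overlap.

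Gstt2, a theta-class enzyme, was at 38.7, 37.4 and 33.4 CPM in young and 25.7, 34.5 and 27.9 CPM in aged oocytes (-0.31, SE 0.15), with overlap. Gstz1, which isomerises maleylacetoacetate in tyrosine breakdown, was at 7.74, 11.2 and 9.61 CPM in young and 11.7, 11.5 and 13.9 CPM in aged oocytes (0.38, SE 0.18). Its groups did not overlap, and it overlaps Pomt2 on the opposite strand, which averaged 1.06 CPM. Of the 32 members 7 were separated as higher and 4 as lower in aged oocytes, against 21.1% and 18.8% of all tested genes (40% in either direction).

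**Figure D2:**
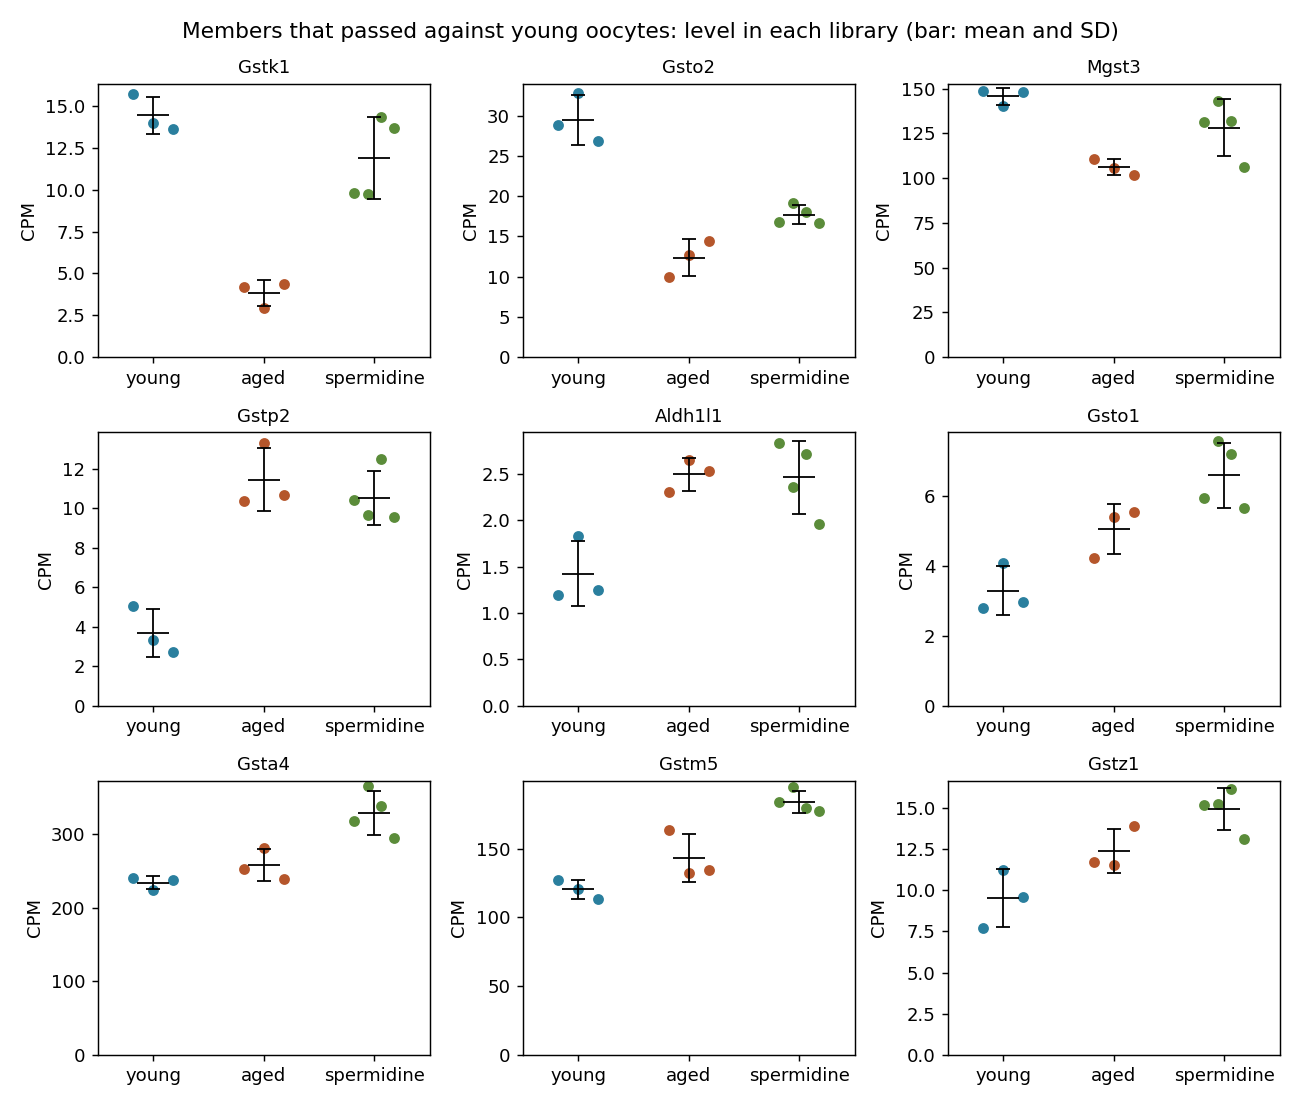
CPM in each library for the 9 members that passed the test against young oocytes, in aged or in spermidine oocytes; each point is 1 library and the bar gives the mean and SD of its group. Gstk1 lies between 2.96 and 4.37 CPM in aged oocytes and between 9.75 and 15.7 CPM in the other libraries, whereas Gstp2 is lowest in young oocytes.

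Among the dehydrogenases 1 passed between aged and young oocytes. Aldh1l1 (Gene ID 107747), which oxidises 10-formyltetrahydrofolate in the cytosol, stood at 1.20, 1.83 and 1.25 CPM in young and 2.302, 2.65 and 2.53 CPM in aged oocytes. The groups did not overlap, and the rise was 0.80 on the log2 scale (SE 0.24, edgeR adjusted p = 0.0377). The call was lost without young replicate 1 or 3, without any 1 of the aged libraries, without spermidine replicate 2, with no filter, in a fit of young and aged libraries alone and with the GC trend as a term (adjusted p = 0.0543 to 0.16). Its mitochondrial counterpart Aldh1l2 was among the members too low to test.

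Aldh2 encodes the mitochondrial enzyme that oxidises acetaldehyde and lipid aldehydes. It stood at 3.59, 3.84 and 2.98 CPM in young oocytes and at 3.54, 7.31 and 7.60 CPM in aged ones. Aged replicate 1 was within the young range while the other aged libraries were above it, and the difference did not pass (0.82, SE 0.27, edgeR adjusted p = 0.0533). Without aged replicate 1 it passed, as it did with DESeq2 and total count scaling (adjusted p = 0.00397 to 0.192 over the alternatives).

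Aldh4a1, the pyrroline-5-carboxylate dehydrogenase of proline breakdown, was at 3.59, 4.95 and 3.34 CPM in young and 4.304, 7.88 and 7.63 CPM in aged oocytes (0.73, SE 0.32). Aldh18a1, which makes pyrroline-5-carboxylate for proline synthesis, was at 5.53, 7.97 and 7.03 CPM in young and 7.37, 10.4 and 10.02 CPM in aged oocytes (0.44, SE 0.24). In both genes aged replicate 1 lay within the young range and the other aged libraries above it. Neither gene passed (edgeR adjusted p = 0.13 and 0.218).

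Aldh3a2, the fatty aldehyde dehydrogenase of the endoplasmic reticulum, was at 7.69, 8.65 and 9.16 CPM in young and at 13.1, 11.9 and 11.5 CPM in aged oocytes. The groups did not overlap, but the difference did not pass (0.52, SE 0.20, edgeR adjusted p = 0.0959). Aldh6a1, which acts on methylmalonate semialdehyde in valine breakdown, was at 15.4, 13.5 and 18.7 CPM in young and 26.6, 18.1 and 17.4 CPM in aged oocytes (0.39, SE 0.20). It overlaps Bbof1 on the opposite strand, which averaged 2.41 CPM, and its groups overlapped.

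The 3 dehydrogenases of highest level did not pass in any comparison. Aldh9a1 (Gene ID 56752) was at 97.0, 137 and 104 CPM in young, 74.7, 156 and 138 CPM in aged, and 87.2, 94.7, 124 and 164 CPM in spermidine oocytes. Aldh7a1 (Gene ID 110695) was at 37.0, 47.8 and 32.6 CPM in young, 26.6, 55.4 and 48.4 CPM in aged, and 33.3, 39.7, 47.6 and 60.2 CPM in spermidine oocytes. Both varied more within the aged and spermidine groups (SD 42.8 and 34.9 CPM for Aldh9a1) than within the young group (SD 21.6 CPM), and all 3 groups overlapped. Aldh1a2 (Gene ID 19378) was steadier, at 66.8, 67.9 and 67.0 CPM in young, 59.1, 70.4 and 68.8 CPM in aged, and 53.4, 60.3, 75.3 and 68.8 CPM in spermidine oocytes. That these 3 genes did not pass does not show equal levels, since the SE of the aged against young log2 difference was 0.28 for Aldh9a1 and Aldh7a1 and 0.15 for Aldh1a2.

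The spread of several dehydrogenases ran with the GC trend of the libraries. The 4 libraries with a positive trend were young replicate 2 (0.115), aged replicates 2 (0.259) and 3 (0.379) and spermidine replicate 4 (0.197). These were also the 4 highest for Aldh9a1, Aldh7a1, Aldh18a1 and Aldh4a1. In the other 6 libraries, with trends from -0.258 to -0.0752, Aldh9a1 lay between 74.7 and 124 CPM, and Aldh4a1 between 2.43 and 4.304 CPM. The GC content of their longest transcripts was 51.0% for Aldh9a1, 50.3% for Aldh7a1, 53.7% for Aldh18a1 and 56.7% for Aldh4a1. Aldh2 (54.8%) also had these 4 libraries highest. Aldh1a2 (50.6%), Mgst3 (50.9%) and Gstp1 (55.8%), of like GC content, did not. A part of GC content in these levels was not tested. Aldh9a1, Aldh7a1, Aldh18a1 and Aldh4a1 were picked after their values were seen. With the trend as a term, the fitted aged minus young log2 difference was 0.16 in place of 0.44 for Aldh18a1 and 0.24 in place of 0.73 for Aldh4a1, and it changed sign for Aldh9a1 (from 0.13 to -0.34) and Aldh7a1 (from 0.15 to -0.29). None of these differences passed with or without the term. The trend was -0.108, 0.115 and -0.258 in the young libraries and -0.163, 0.259 and 0.379 in the aged ones. It thus ran partly with age, and the trend and an age difference cannot be fully told apart. Another dehydrogenase, Aldh6a1, passed between aged and young oocytes only with the term (edgeR adjusted p = 0.046, against 0.179 in the main fit). The 3 tested genes whose log2 CPM over the 10 libraries was most like that of Aldh9a1 were Apeh (Pearson r = 0.979), Mks1 (0.976) and Nub1 (0.974), picked as the highest of all genes and so given without a p.

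**Figure D3:**
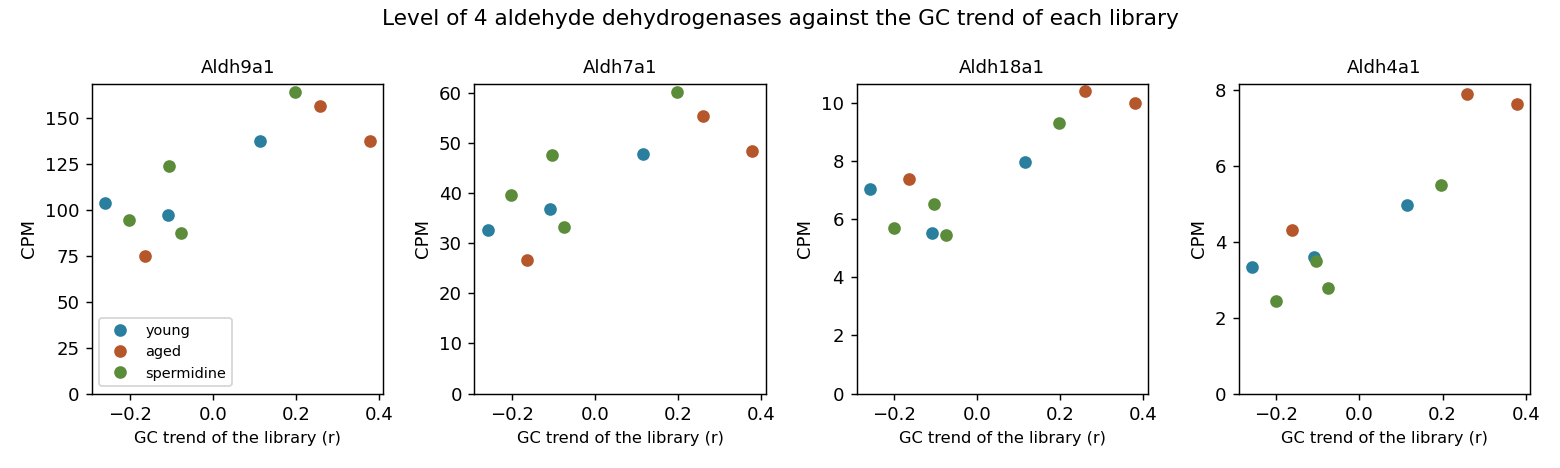
CPM of Aldh9a1, Aldh7a1, Aldh18a1 and Aldh4a1 in each of the 10 libraries against the library's GC trend (the correlation across genes of its deviations with transcript GC content), coloured by group. In each panel the 4 libraries with a positive trend are the 4 highest, whichever group they belong to.

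Between spermidine and aged oocytes, the comparison by which the families were chosen, the values are a description. Of 32 members 1 passed edgeR's threshold, Gstk1, where 4.86% of all genes did (2.42% higher and 2.44% lower), and nothing is read from that share. The groups did not overlap in 7 members, all higher with spermidine, where 11.4% of all genes were separated as higher and 8.49% as lower (19.9% in all), and 9 members had an unadjusted p under 0.05, where 24.2% of all genes did. Of the 19 transferases 18 had a log2 fold change above 0, with a median of 0.52, and of the 13 dehydrogenases 5 did, with a median of -0.03. Over all genes 47.5% were above 0 and the median was -0.03. The summed level of all 24 transferases was 655, 671 and 607 CPM in aged oocytes and 805, 882, 843 and 728 CPM with spermidine, against 678, 638 and 639 CPM in young oocytes. The summed level of the 21 dehydrogenases overlapped, at 221 to 343 CPM in aged and 221 to 353 CPM in spermidine oocytes. In bulk libraries fewer cells of a type and less RNA per cell cannot be told apart.

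Gstk1 was at 9.81, 9.75, 14.4 and 13.7 CPM with spermidine, above all 3 aged libraries (2.96 to 4.37 CPM) and reaching into the young range. Its log2 fold change over aged oocytes was 1.63 (SE 0.21), or 3.10-fold, and against young oocytes it was -0.28 (SE 0.20), which did not pass. Gsto2 was at 16.8, 19.2, 17.98 and 16.7 CPM, between the aged and the young libraries without overlap (0.52, SE 0.16 against aged). Mgst3 was at 132, 143, 132 and 106 CPM and overlapped both groups (0.27, SE 0.13). The comparisons share their aged libraries, so that a fall with age and a rise with spermidine in these genes rest in part on the same 3 values.

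Gsta4 was at 317, 365, 339 and 295 CPM with spermidine, above every aged and young library (log2 fold change 0.35 over aged, SE 0.12). Gstm5 was likewise above all others at 184, 195, 179.8 and 178 CPM (0.36, SE 0.12). Gsta2 was at 3.04, 3.44, 3.28 and 2.57 CPM against 2.00, 2.27 and 2.02 CPM in aged oocytes (0.56, SE 0.18). It shares 32.9% of its 50-base words with Gsta1, so reads may be split between these copies. The 3 tested genes most like Gsta4 in log2 CPM over the 10 libraries were Gsta2 (Pearson r = 0.964), Il17f (0.949) and Gm5941 (0.949), again picked as the highest of all genes.

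The remaining transferases above 5 CPM had fitted differences from -0.12 to 0.44. Gstt2 was at 38.1, 45.5, 38.4 and 37.2 CPM with spermidine (0.44, SE 0.15), above the aged libraries and around the young ones. Gsto1 was at 5.96, 7.58, 7.21 and 5.68 CPM (0.38, SE 0.20), above the aged libraries. Gstz1 was at 15.2, 15.3, 16.2 and 13.2 CPM (0.27, SE 0.16) and Gstm6 at 11.8, 11.6, 13.3 and 9.82 CPM (0.27, SE 0.15), both overlapping the aged libraries. Gstp2 stayed near its aged level at 10.4, 9.64, 12.5 and 9.55 CPM (-0.12, SE 0.21), the 1 transferase with a value below 0. Gstp1 was at 56.2, 44.1, 57.0 and 35.8 CPM, a range that took in all aged libraries.

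Several dehydrogenases lay the other way. Aldh2 was at 3.13, 3.26, 3.64 and 3.95 CPM with spermidine (-0.81, SE 0.25), and Aldh4a1 at 2.77, 2.43, 3.48 and 5.48 CPM (-0.90, SE 0.30). Aldh18a1 was at 5.47, 5.69, 6.52 and 9.32 CPM (-0.46, SE 0.22) and Aldh3a2 at 8.06, 7.14, 9.68 and 12.2 CPM (-0.39, SE 0.19). All 4 overlapped the aged libraries, and their spermidine means were close to the young ones (3.50 against 3.47 CPM for Aldh2). Spermidine replicate 4, the spermidine library with a positive GC trend, was the highest of its group for each. Aldh1l1 at 2.83, 2.36, 2.71 and 1.96 CPM and Aldh6a1 at 20.4, 19.3, 18.6 and 22.8 CPM overlapped their aged libraries.

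**Figure D4:**
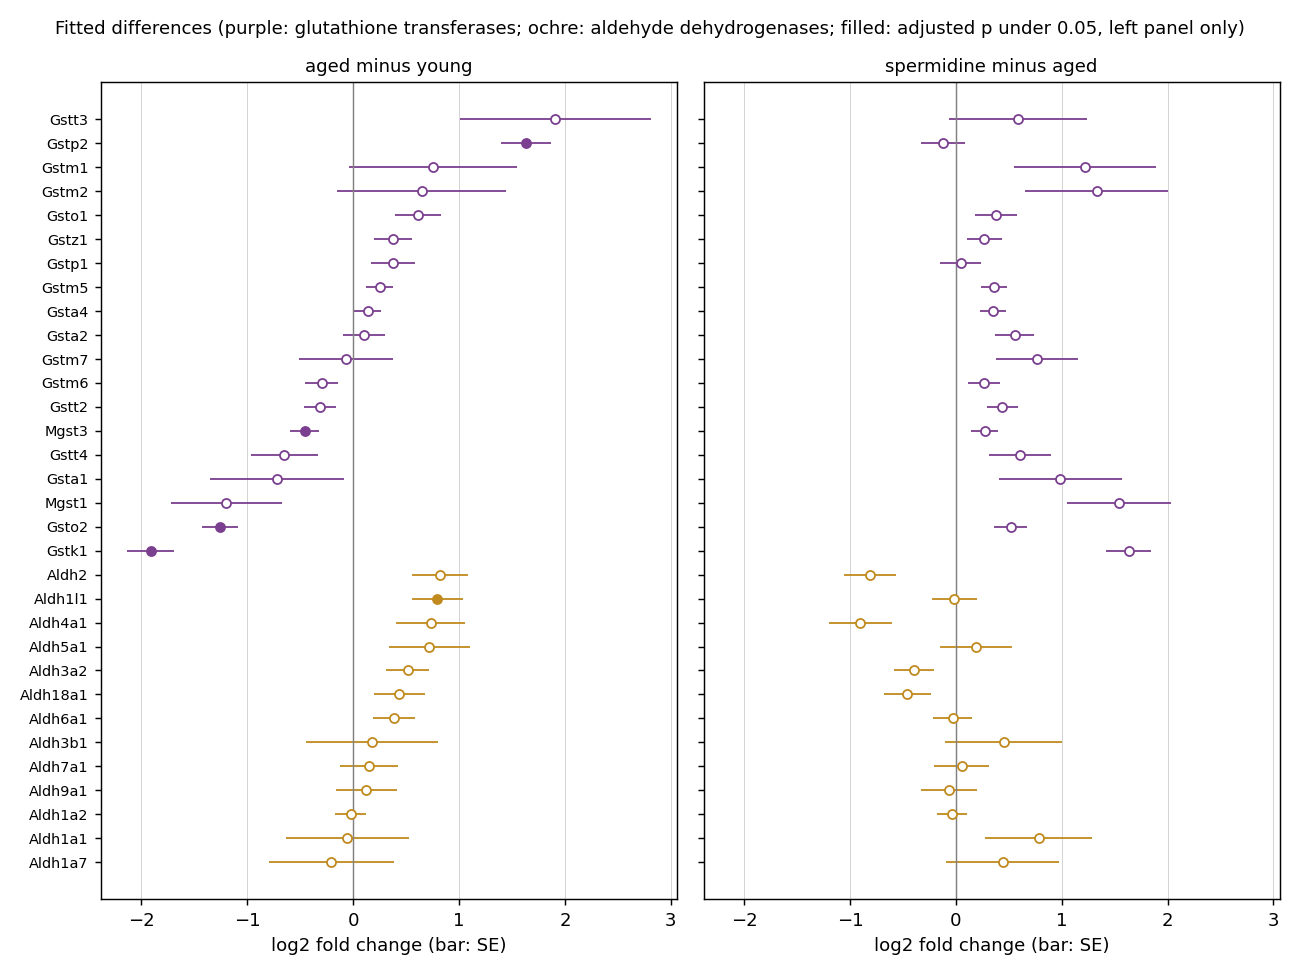
Fitted log2 fold changes of the 32 tested members with their SE, aged minus young on the left and spermidine minus aged on the right, in purple for transferases and ochre for dehydrogenases; filled points on the left passed at an adjusted p of 0.05. On the right 18 of 19 transferases lie above 0, and the dehydrogenases lie on both sides.

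Of the tested members below 5 CPM that were not called, Gsta1, Gstm7, Aldh1a1, Aldh1a7 and Aldh3b1 stayed between 0.0667 and 0.872 CPM in every library. Gstt4 lay between 0.644 and 1.36 CPM, and Aldh5a1, which oxidises succinate semialdehyde, between 0.934 and 2.95 CPM. Gstt3 was at 0 counts in young replicate 3 and at most 0.180 CPM in young oocytes, and reached 1.304 CPM in spermidine replicate 4.

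Among the low transferases, Gstm1, Gstm2 and Mgst1 were lowest in spermidine replicate 4. Gstt3 and Gstt4 went the other way and were highest in that library, at 1.304 and 1.34 CPM. Gstm1, a major mu-class enzyme of somatic tissues, was at 0.993, 4.17, 3.77 and 0.268 CPM with spermidine, and Gstm2 at 0.541, 2.86, 3.93 and 0.460 CPM. Both were high in spermidine replicates 2 and 3 and lower in replicates 1 and 4. In replicate 4 Gstm1 was below every young and aged library, and Gstm2 was within their range. The aged libraries ran from 0.634 to 1.33 CPM for Gstm1 and from 0.334 to 1.02 CPM for Gstm2. The log2 fold changes over aged oocytes were 1.22 (SE 0.67) and 1.33 (SE 0.68). Mgst1, which is also abundant in somatic tissues, was at 1.05, 2.83, 1.82 and 0.805 CPM with spermidine, 0.901, 0.379 and 0.367 CPM in aged and 1.80, 0.826 and 1.25 CPM in young oocytes (1.54, SE 0.49 over aged). Among young and aged libraries Mgst1 was highest in young replicates 1 and 3 and aged replicate 1, those with high blood and immune markers. Those markers were low in the spermidine libraries, and a part of blood cells in the level of Mgst1 was not tested. Gstm1, Gstm2 and Mgst1 were picked after their values were seen, and their counts were low, 7 to 115 in a library for Gstm1.

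Of 15 markers of granulosa cells, the somatic cells around the oocyte, 3 that were picked after their values were seen had a like order among the spermidine libraries. The gap junction gene Gja1 was at 1.68, 5.08, 2.35 and 0.460 CPM in the spermidine libraries, and the steroid enzyme gene Hsd17b1 at 0.571, 1.09, 0.931 and 0.115 CPM. The inhibin gene Inhbb was at 0.451, 0.580, 0.364 and 0.0384 CPM. All 3 were lowest in spermidine replicate 4 and highest in replicate 2, and in the aged libraries they reached at most 0.734, 0.303 and 0.110 CPM. The young libraries had 1.18 to 2.21 CPM of Gja1 and at most 0.737 CPM of Gstm1 and 0.534 CPM of Gstm2. Of the other markers on the list, Fshr, Cyp19a1, Nr5a2 and Kitl did not have this order, and neither did Foxl2, Inhba, Nr5a1 and Lhcgr. Nr5a1 and Lhcgr were highest in spermidine replicate 4, at 0.192 and 0.153 CPM. Amh, Has2, Ptx3 and Tnfaip6 had at most 1 count in a spermidine library. In spermidine replicates 1 to 4 Fshr was at 0.722, 0.943, 0.891 and 1.46 CPM, and Cyp19a1 at 10.1, 10.8, 12.4 and 10.7 CPM. Nr5a2 was at 8.15, 7.54, 7.74 and 7.02 CPM, and Kitl at 2.23, 1.704, 1.903 and 1.23 CPM. All 15 markers of the granulosa list had a count in some library, and the list summed to 20.8 to 24.5 CPM in young, 19.9 to 23.3 CPM in aged and 21.8 to 28.2 CPM in spermidine oocytes. Of its defining markers, Amh was at 0 in 9 of the 10 libraries and Foxl2 reached at most 0.202 CPM. Their part in the levels of Gstm1, Gstm2 and Mgst1 was not tested.

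**Figure D5:**
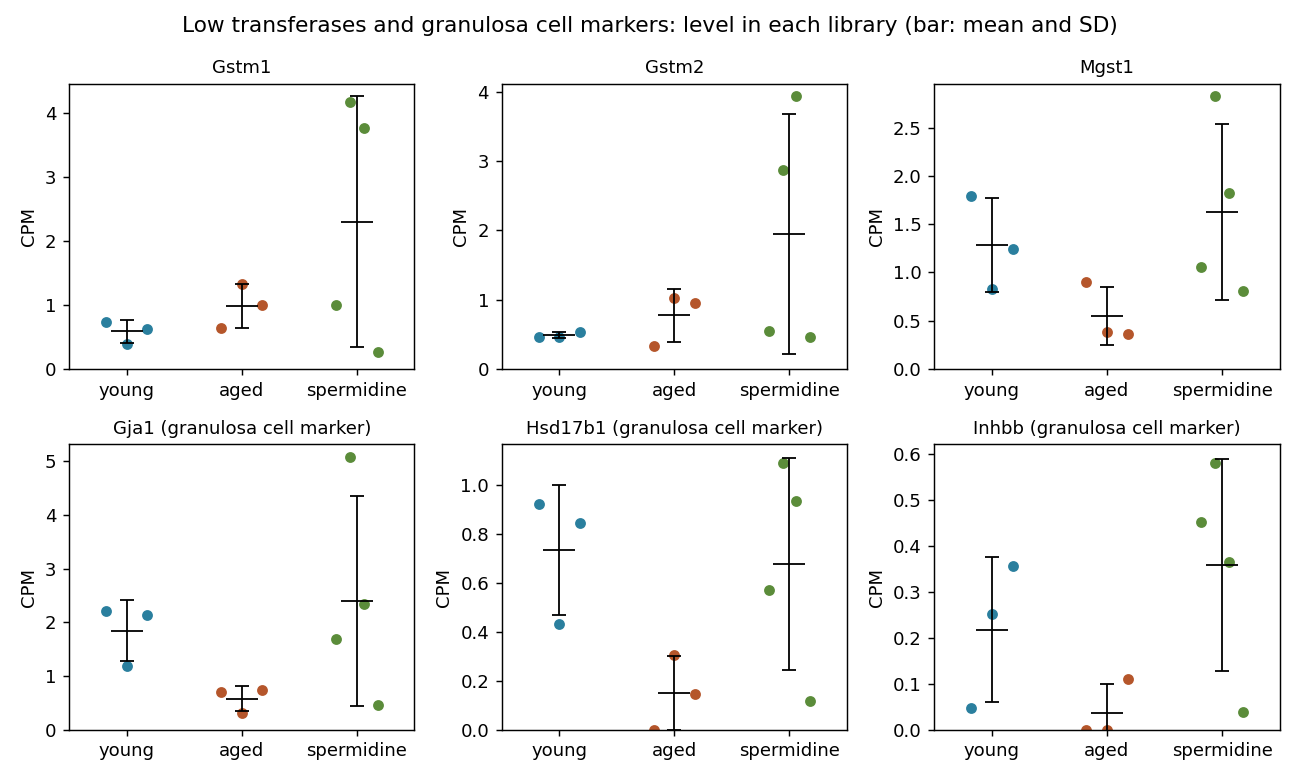
CPM in each library of Gstm1, Gstm2 and Mgst1 (top) and of the granulosa cell markers Gja1, Hsd17b1 and Inhbb (bottom), with the mean and SD of each group. Spermidine replicate 2 has 4.17 CPM of Gstm1 and 5.08 CPM of Gja1, and spermidine replicate 4 has 0.268 and 0.460 CPM. The genes shown were picked after their values were seen, and other granulosa cell markers did not have this order.

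Against young oocytes, 6 of the 32 members passed with spermidine, all of them transferases, where 5.36% of all genes did (3.44% higher and 1.92% lower), and nothing is read from that share. Of the members 24 had a log2 fold change above 0 (54.7% of all genes) and 12 an unadjusted p under 0.05 (20% of all genes). The groups were separated for 9 as higher and 1 as lower, where 12.1% and 8.92% of all genes were (21% in all). These values use the spermidine libraries by which the families were chosen, so they are a description and are given without p-values. Gstp2 (1.51, SE 0.23), Gsto1 (1.00, SE 0.20), Gstm5 (0.61, SE 0.12), Gstz1 (0.65, SE 0.17) and Gsta4 (0.49, SE 0.12) were higher. Gsto2 was lower (-0.74, SE 0.15). Total count scaling, under which the median of all genes was 0.23 in place of 0.04, gave 6 higher and 0 lower, with Gsta2 added and Gsto2 lost.

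Of these counts, Gstp2 was included in all 19 alternatives. The calls of Gstm5 and Gsto1 were lost without young replicate 1, young replicate 3 or spermidine replicate 2, and that of Gsto2 without young replicate 1 or 2. Those of Gstz1 and Gsta4 were each lost in 9 or more alternatives. By edgeR 0 of 13 dehydrogenases passed against young oocytes, with 2 at an unadjusted p under 0.05 and 0 by DESeq2. Aldh1l1 was nearest (0.78, SE 0.23), with all 4 spermidine libraries above the young ones.

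The start regions of the members were searched for the core of the antioxidant response element, TGACNNNGC, to which the factor Nrf2 binds in many transferase genes, and for GCGTG, the core recognised by the aryl hydrocarbon receptor. Both strands of the 250 bases before each start listed by RefSeq (GRCm38.p6) were read, for 37 of 45 members with a listed start. TGACNNNGC was found in 6 of them, Gstm5, Gstm7, Gsta3, Mgst1, Aldh9a1 and Aldh1a2, against 11.5% of 27025 genes. GCGTG was found in 12, against 30.9% of genes. A match is only a run of letters and no match says nothing of the factor. Gstm5, which has the highest mean CPM of the members with the first motif, is shown with that motif in capitals (the region also holds the other motif, chr3:107895604-107895853, plus strand, 5′ to 3′).
Gstm5: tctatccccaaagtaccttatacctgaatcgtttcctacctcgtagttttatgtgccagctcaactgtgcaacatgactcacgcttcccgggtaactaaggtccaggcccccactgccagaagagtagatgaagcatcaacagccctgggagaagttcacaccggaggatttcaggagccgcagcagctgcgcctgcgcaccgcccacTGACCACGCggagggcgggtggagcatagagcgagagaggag

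Other genes of glutathione and aldehyde metabolism, in 9 lists, were compared in the same fit, in which 17.8% of all genes passed between aged and young oocytes. The share of a list that passed ran from 0% for glutathione supply, 9.09% for other xenobiotic metabolism and for amine oxidation and 12.5% for proline and lysine to 20.0% for relatives of the transferases, 23.1% for other glutathione use, 25.0% for folate, 33.3% for conjugate export and 36.4% for retinoids. With 8 to 33 tested genes a list, nothing particular to a list is read from these shares. Of 15 tested genes of glutathione synthesis, breakdown and reduction 0 passed by edgeR between aged and young oocytes, with 3 at an unadjusted p under 0.05 and 0 by DESeq2. Of 13 other enzymes that use glutathione 1 rose and 2 fell. Glo1, which clears methylglyoxal, was at 16.3 CPM ± 0.923 in aged and 32.3 CPM ± 3.81 in young oocytes (SD, n = 3 each). The glutathione peroxidase gene Gpx7 was at 0.0953 CPM in aged and 0.594 CPM in young oocytes (-2.58, SE 0.68), so its fold change rests on few counts. Gpx6 was higher in aged oocytes (0.58, SE 0.18). Of 10 relatives of the transferases Clic4 rose (0.58, SE 0.15) and Eef1e1 fell (-0.60, SE 0.15).

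Of 9 genes that export conjugates Abcc3 rose (0.80, SE 0.24) and the drug transporter genes Abcb1b (-0.81, SE 0.18) and Abcb1a (-1.89, SE 0.47) fell. Of 33 other genes of xenobiotic metabolism Ugp2 rose (0.85, SE 0.27) and the thiopurine methyltransferase gene Tpmt (-0.64, SE 0.16) and the epoxide hydrolase gene Ephx2 (-1.06, SE 0.30) fell. Of 11 retinoid genes the receptors Rara (1.81, SE 0.36) and Rarb (1.42, SE 0.33) and the retinal reductase gene Dhrs3 (0.90, SE 0.24) rose, while the retinoic acid binding protein gene Crabp2 (-0.56, SE 0.16) fell. Aldh1a2, which makes the ligand of these receptors, was at 66.1 CPM ± 6.11 (SD, n = 3) in aged and 67.2 CPM ± 0.566 (SD, n = 3) in young oocytes.

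Of 11 genes of amine oxidation the monoamine oxidase gene Maob fell (-0.62, SE 0.16). Of 12 folate genes Mthfd1l rose (0.85, SE 0.21) and the thymidylate synthase gene Tyms (-0.51, SE 0.14) and Mtfmt (-0.55, SE 0.18) fell. Of 8 genes of proline, ornithine and lysine metabolism Aadat fell (-0.89, SE 0.25).

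Between spermidine and aged oocytes the same lists are again a description. Beyond the members, Abcb1b was at 100.7 CPM ± 22.9 (SD, n = 4) against 53.7 CPM ± 4.75 (SD, n = 3), and the aldo-keto reductase gene Akr1b8 at 20.7 CPM ± 5.14 (SD, n = 4) against 11.5 CPM ± 1.94 (SD, n = 3). Xdh, which encodes xanthine dehydrogenase, was at 1.51 CPM ± 1.13 (SD, n = 4) against 11.3 CPM ± 3.78 (SD, n = 3). Of the 33 other xenobiotic metabolism genes 19 had a log2 fold change above 0, with a median of 0.16. The folate gene Shmt1 was higher (1.44, SE 0.27) and Atic lower (-0.82, SE 0.20), and Faxc, a relative of the transferases, was lower (-1.39, SE 0.37). In the other 5 lists 0 genes passed by edgeR: glutathione supply (2 at an unadjusted p under 0.05, 1 by DESeq2), other glutathione use (4 and 0), retinoids (3 and 2), amine oxidation (1 and 0) and proline and lysine (1 and 0).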

How the data were processed

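RNA was sequenced from oocytes in 10 libraries, which their titles place in the young (3), aged (3) or spermidine (4) group. Per the submitters' processing notes the tools were RSEM 1.3.1, Bowtie2 2.3.4.3 and DESeq2 1.4.5 and the genome was mm9; what each did is not given there. The authors deposited 1 table of expected counts, a value for each gene in each library, 15.9% to 16.7% of which were not whole, and with their log2 ratios, p-values and q-values for 2 comparisons. Whether counting used strand is not given in the sources used here.

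Counts were rounded, filtered with filterByExpr, scaled by TMM and tested with edgeR 4.0.16 (R 4.3.3) by the robust quasi-likelihood F test, with the 3 group means fitted jointly to the 10 libraries. The Benjamini-Hochberg adjustment covered 12315 genes, and the threshold was 0.05. SEs are those implied by the F statistic. CPM are relative to the TMM-scaled total. Length and GC content are those of the longest GENCODE M21 (GRCm38) protein-coding transcript of a Gene ID, found for 97.4% of tested genes and for all 45 members. Totals of 24222185 to 28730790 counts set the precision of low genes.

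Every member is accounted for. Values in every library are given for members with a mean of at least 5 CPM in a group or a call, and up to 4 called genes of smallest p are named per list. The members and lists were chosen with earlier results of these data known. Alternatives were RLE factors, total counts, no filter, DESeq2 1.42.0, a filter of 10 CPM in 3 libraries, a fit of only the 2 groups, a replicate block and each library left out. A GC trend term was chosen after seeing the data, as was the joint removal of aged replicate 1 and spermidine replicate 1. On simulated counts for aged minus young with 12149 genes in the fit, known log2 changes of size 2 were found in 92% of genes and of size 1 in 44%, and 7 of 143 calls were false. Plots used matplotlib 3.10.9 under Python 3.11.15.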

Additional observations from a re-analysis of the deposited data

Results flagged for a closer look

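Among the 4 spermidine libraries Gstt2 was at 45.5 CPM in replicate 2 and at 37.2 to 38.4 CPM in the other 3, and the gap between the highest library and the next was 0.852 of the group's range (above Dixon's 95% limit for 4 libraries). It was the 1 such case among 32 tested members, and chance gives about 5% of groups.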

How the results depend on the processing

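The members that passed between aged and young oocytes numbered 5, and 3 with no filter, 9 without aged replicate 1 and spermidine replicate 1 together (chosen after seeing the data) and 3 to 6 with each library left out (3 without young replicate 1 or 3 or aged replicate 2 or 3). Gstk1, Gsto2 and Gstp2 passed in all 19 alternatives. Between spermidine and aged oocytes 1 passed, against 7 by DESeq2, 4 without those 2 libraries, 2 with the GC trend as a term (also chosen after seeing the data) and 1 to 4 with each library left out (4 without aged replicate 1, 3 without spermidine replicate 4), Gstk1 among them each time. Against young oocytes 6 spermidine members passed, and 1 to 8 with each library left out (1 without young replicate 1, 2 without young replicate 3 or spermidine replicate 2). Over all genes the calls ran from 827 to 2992, 99 to 1366 and 273 to 1099 in these comparisons. Of members that did not pass, 7, 9 and 12 of 32 changed sign under some alternative, with log2 fold changes of at most 0.205, 0.587 and 0.344 in size. With a replicate block, for which spermidine replicate 4 was left out, 5, 4 and 7 members passed. Correlations between the deviations of same-numbered libraries ran from -0.275 to 0.408, the highest for aged replicate 1 with spermidine replicate 1. In the comparisons 2, 3 and 0 of 6 libraries correlated best with their own number, so the numbers were not taken as pairs. Depth limits the 13 members with at most 50 counts.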
